A study of Homo sapiens with 18 samples.

Results

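The thioredoxin and peroxiredoxin system was described in myeloma cells through 10 genes, which were taken by symbol from the count tables: TXN, TXN2, PRDX1, PRDX2, PRDX3, PRDX5, PRDX6, SRXN1, TXNIP and ARRDC4. All 10 were present among the 43735 genes of the raw count table and among the 14281 genes that passed a filter on low counts. SRXN1, which encodes sulfiredoxin, rose 2.35-fold in MM1R cells and 3.12-fold in MM1S cells after 3 h with the GPX4 inhibitor RSL3, and its level with Fer-1 given before RSL3 was close to that with RSL3 alone. TXNIP, which encodes the thioredoxin-interacting protein, was higher with RSL3 than without it and higher again with Fer-1 and RSL3 in each of the 6 cell passages, or in 5 of 6 for the first step when counts were scaled by library totals. That order in all 6 passages was shared by 1.24% of all genes. TXNIP rose past the FDR and fold thresholds in both lines with Fer-1 and RSL3 against no treatment. With RSL3 alone against no treatment it did so in neither. The calls in both lines were lost when certain single libraries were left out. The step from RSL3 alone to Fer-1 and RSL3 did not pass the test, with FDRs of 0.893 in MM1R cells, 0.851 in MM1S cells and 0.309 averaged (edgeR). The 2 thioredoxins and the 5 peroxiredoxins among the 10 genes did not pass the test after RSL3, with fold changes between 0.949 and 1.22. A further peroxiredoxin, PRDX4, was not among the 10 and was placed in a list of related genes. PRDX2 and ARRDC4 were higher in untreated MM1R cells than in untreated MM1S cells, a comparison in which line and passage cannot be told apart. With each library left out in turn, the FDR stayed under 0.05 in 18 of 18 fits for PRDX2. For ARRDC4, which had low counts, it did so in 14 of 18.

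Thioredoxins are small proteins that reduce disulfide bonds in other proteins and are themselves reduced by thioredoxin reductase with NADPH. Peroxiredoxins reduce peroxides through a reactive cysteine, and the typical members are then reduced by thioredoxin. In these members the cysteine can be over-oxidised to a sulfinic acid, which sulfiredoxin repairs. TXNIP is an alpha-arrestin that binds reduced thioredoxin and limits glucose uptake, and ARRDC4 is a related alpha-arrestin. Both are known as targets of the glucose-sensing transcription factor MondoA (MLXIP) with its partner MLX, whereas SRXN1 is known as a target of NRF2. Plasma cells and myeloma cells secrete antibody, and protein folding in their endoplasmic reticulum produces peroxide.

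MM1S is a human multiple myeloma line that responds to glucocorticoids, and MM1R is the resistant line of the same origin. Cells of each line were left untreated, were given 5 µM RSL3 for 3 h, or were given 2 µM of the lipid peroxidation inhibitor Fer-1 (ferrostatin-1) for 2 h before the 3 h with RSL3. The 6 groups held 3 libraries each, with replicates 1 to 3 from passages 4, 6 and 7 in MM1R and 16, 22 and 23 in MM1S, and each passage gave 1 library per treatment. These libraries include no group given Fer-1 without RSL3, so an effect of Fer-1 itself cannot be told apart from its effect on the RSL3 response. Each line stands for 1 culture lineage whose passages differ from those of the other line.

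Total counts lay between 17635438 and 19368343 per library. The 6 plasma cell markers SDC1, CD38, TNFRSF17, IRF4, PRDM1 and XBP1 were detected in all 18 libraries, with XBP1 at 1129 to 1617 CPM (counts of a gene relative to the library total). The B cell, T cell, myeloid and erythroid markers were near 0 apart from CD3E at 3.39 to 11.4 CPM and HBB at 3.46 to 12.9 CPM. These marker levels are relative to the unscaled library total, whereas all further CPM values are relative to the TMM-scaled total. Replicate 2 of the MM1R cells given Fer-1 and RSL3 stood apart. Levels of 10 genes were placed on a scale from the mean of the other 8 MM1R libraries (0%) to the mean of the MM1S libraries. The genes were chosen as at least 8 times higher in MM1S cells than in those 8 libraries. Values near 0% in those 8 libraries were therefore set by the choice. The library that stood apart had a median of 48.5%, against -0.741% to 2.80% in the other 8. Its level of the glucocorticoid receptor gene NR3C1 was 50.2 CPM against 13.8 to 22.3 CPM. The MM1R and averaged results for Fer-1 and RSL3 include this library. Values without it are given beside part of the results for the members, and not for the related genes. Replicate 1 of the MM1S cells given RSL3 stood apart as well. The MM1S and averaged results for RSL3 include this library, and values without it are given for part of the members and not for the related genes. Its TMM scaling factor was the lowest, 0.864 against 0.926 to 1.06 in the others. The chi-square of its counts against each of the other 2 replicates, divided by the degrees of freedom, was 147 and 171, against 8.26 between those 2, and its NR3C1 level was 392 CPM against 89.9 to 163 CPM in the other MM1S libraries.

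Levels between genes were compared per kilobase of the canonical transcript, in CPM per kb. TXN, cytosolic thioredoxin, had the highest mean over the 18 libraries, 478 ± 69.5 CPM per kb (SD). PRDX2 and PRDX1, both cytosolic peroxiredoxins, followed at 310 ± 69.8 and 292 ± 90.8 CPM per kb, which did not differ beyond their spread. TXNIP averaged 188 ± 88.2 CPM per kb, but its place in the order depended on the treatment. Its group means were 92.7 (MM1S) and 131 (MM1R) CPM per kb without treatment and 139 to 307 CPM per kb in the treated groups. The mitochondrial PRDX3, PRDX5, which is found in several compartments, and the 1-Cys peroxiredoxin PRDX6 had levels of 136, 131 and 126 CPM per kb and could not be ordered, because their ranges over libraries overlapped almost completely. Mitochondrial TXN2 averaged 73.2 ± 8.31 CPM per kb. SRXN1 was below it without treatment, with group means of 36.4 and 42.2 CPM per kb against 63.7 and 74.9, and above it in the treated groups, at 99.3 to 117 CPM per kb against 70.9 to 78.0. ARRDC4 was far below the others at 1.03 ± 0.461 CPM per kb, with 35 to 188 counts per library, so that its values carry the largest counting error. The 10 genes together took between 0.167% and 0.294% of the scaled counts of a library.

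**Figure D1:**
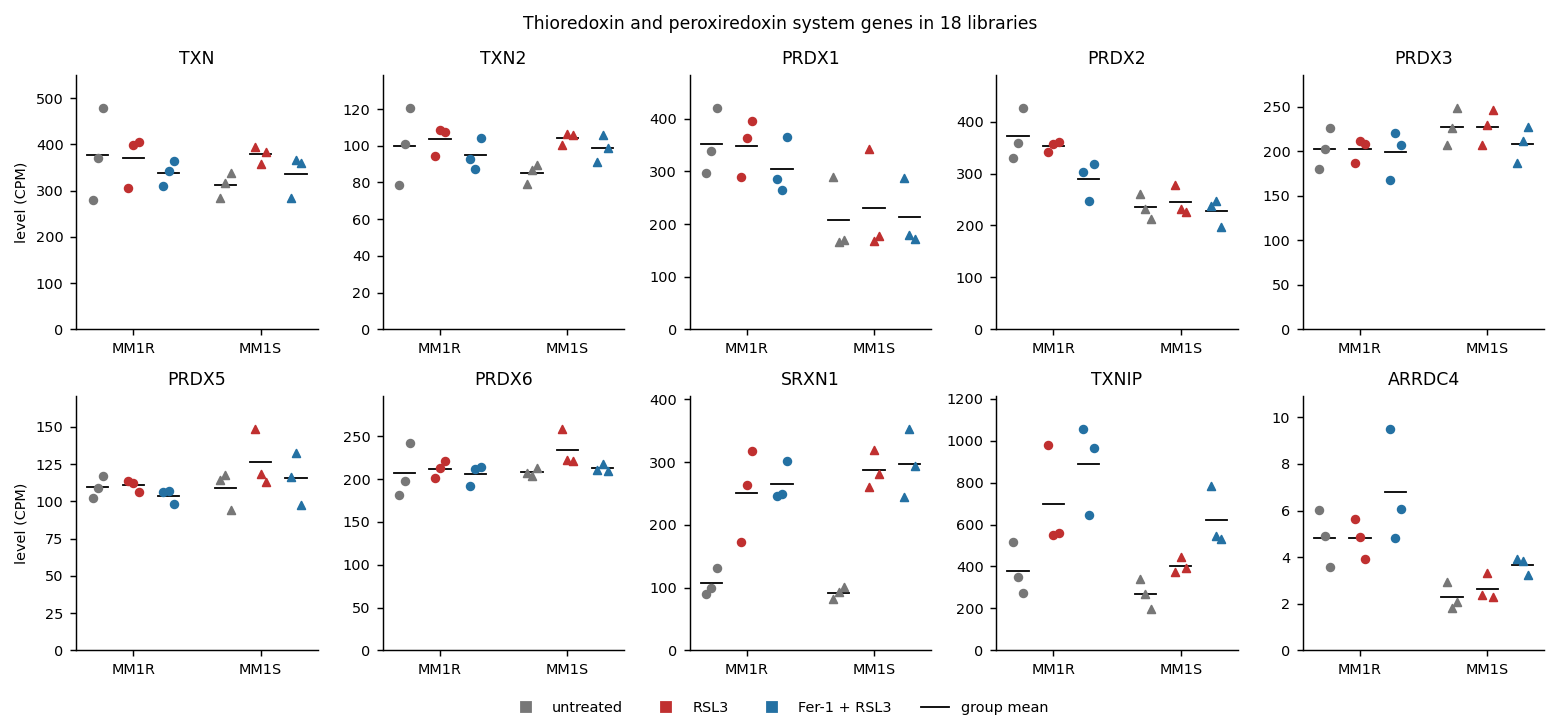
Level of each of the 10 genes in CPM (vertical axis, from 0) in the 18 libraries, with 1 point per library, coloured by treatment, circles for MM1R cells and triangles for MM1S cells, and a black line for the mean of each group of 3. SRXN1 shows untreated libraries at 82.5 to 131 CPM below all treated libraries at 172 to 353 CPM, whereas the treatments overlap for TXN and PRDX3.

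The question of the first comparison is how the transcripts of this system differed after 3 h with RSL3. SRXN1 was the member that moved most. Its levels in untreated MM1R cells were 89.5, 99.8 and 131 CPM at passages 4, 6 and 7, against 172, 263 and 318 CPM with RSL3 at the same passages. In MM1S cells, the levels were 82.5, 92.5 and 101 CPM at passages 16, 22 and 23 without treatment, against 261, 319 and 281 CPM with RSL3. No RSL3 library overlapped with an untreated library in either line. The log2 fold change was 1.23 ± 0.20 (SE) in MM1R cells and 1.64 ± 0.20 in MM1S cells, with FDRs of 0.00498 and 0.000958 (edgeR's quasi-likelihood test over 14281 genes, n = 3 libraries per group). Averaged over both lines it was 1.44 ± 0.14, with an FDR of 2.72e-05 by the same edgeR test. SRXN1 was the only member of the 10 called as a differentially expressed gene (DEG: FDR below 0.05, absolute log2 fold change above 1) in either line or in the average over the lines. Over all genes tested, 1.2% were DEGs in MM1R cells, 1.61% in MM1S cells and 3.24% in the averaged comparison.

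Within passages, RSL3 multiplied the SRXN1 level by 1.92 to 3.45, and the lowest of the 6 ratios was that of MM1R passage 4. The log2 fold changes of the 2 lines differed by -0.41 ± 0.28 (MM1R minus MM1S, 95% interval -0.995 to 0.18), with an FDR of 0.999919 for the interaction (edgeR), so a difference in response between the lines was not resolved with 3 libraries per group. No member passed the interaction test by edgeR or DESeq2 or had an unadjusted p under 0.05 in edgeR, and 0% of all genes passed, with 1.55% of the genes at an unadjusted p under 0.05.

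The SRXN1 gene lies on chromosome 20 at 627259 to 633844 on the minus strand of hg19 and overlaps 1 further protein-coding gene model on that strand. TXNIP lies on the plus strand of chromosome 1 at 145438490 to 145442635, and ARRDC4 on the plus strand of chromosome 15 at 98503933 to 98517063, with no overlapping gene in the annotation. SRXN1 and TXNIP were the members with an FDR under 0.05 in the averaged RSL3 comparison (edgeR), TXNIP without passing the fold threshold. ARRDC4 is the arrestin related to TXNIP. The 250 bases before the start of these 3 genes are therefore shown. They are RefSeq promoter sequences placed on hg19 by exact match, at chr20:633845-634094 (minus strand), chr1:145438240-145438489 (plus strand) and chr15:98503683-98503932 (plus strand), written 5′ to 3′ with the letters of a motif match in capitals.
SRXN1: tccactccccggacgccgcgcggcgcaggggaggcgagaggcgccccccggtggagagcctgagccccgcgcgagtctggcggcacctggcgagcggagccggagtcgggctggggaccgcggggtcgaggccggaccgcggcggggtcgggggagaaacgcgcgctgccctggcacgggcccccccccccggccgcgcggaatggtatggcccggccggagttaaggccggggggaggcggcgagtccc
TXNIP: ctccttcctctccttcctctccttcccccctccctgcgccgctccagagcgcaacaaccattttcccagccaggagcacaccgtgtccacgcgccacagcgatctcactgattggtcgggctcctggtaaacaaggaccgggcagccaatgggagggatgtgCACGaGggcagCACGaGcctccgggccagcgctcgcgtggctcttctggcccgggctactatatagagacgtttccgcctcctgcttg
ARRDC4: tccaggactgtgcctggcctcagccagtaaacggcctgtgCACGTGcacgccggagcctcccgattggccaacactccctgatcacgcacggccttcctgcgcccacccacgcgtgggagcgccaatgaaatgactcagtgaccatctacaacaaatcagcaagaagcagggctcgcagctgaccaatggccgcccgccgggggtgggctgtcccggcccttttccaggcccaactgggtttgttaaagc
Motifs were searched on both strands in the 250-base windows of 35116 RefSeq promoters. The first was TGACNNNGC, the core of the antioxidant response element bound by NRF2, held by 10.9% of all windows. The second was CACGTG, the E-box, held by 6.34%, and the last was a paired E-box, CACGNG repeated after a gap of 5 bases, the kind of element bound by MondoA and MLX, written with the TXNIP promoter known and held by 0.0456% (16 windows). Windows were found for 7 of the 10 genes. TXNIP, whose first of 2 listed start sites is shown, held the paired form once, 88 bases before that start, ARRDC4 held 1 CACGTG, 210 bases before its start, and PRDX3 held 1 CACGTG, 157 bases before its start. The SRXN1 window held none of the motifs. Of the reductase genes described further on, TXNRD1 held TGACNNNGC in both of its windows, 99 and 102 bases before the start. A match is a string of letters and not a measured binding site.

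TXNIP had the widest spread of levels among libraries, from 196 to 1056 CPM. In MM1R cells it stood at 516, 349 and 276 CPM without treatment at passages 4, 6 and 7 and at 980, 550 and 560 CPM with RSL3. In MM1S cells it stood at 341, 268 and 196 CPM without treatment at passages 16, 22 and 23 and at 374, 444 and 392 CPM with RSL3. The groups did not overlap in either line with TMM scaling, but the highest untreated and the lowest RSL3 library lay close together in both. With scaling by the library total, the groups overlapped in both lines. The log2 fold change was 0.87 ± 0.27 in MM1R cells with an FDR of 0.0901 and 0.59 ± 0.27 in MM1S cells with an FDR of 0.248 (edgeR). Without MM1R RSL3 replicate 1 the MM1R value was 0.55 with an FDR of 0.410 (edgeR). Averaged over both lines it was 0.73 ± 0.19 (1.66-fold), with an FDR of 0.0180 (edgeR), which passes the FDR threshold and not the fold threshold. Without the same library that FDR was 0.0590. TXNIP and SRXN1 were the 2 members with an FDR under 0.05 at any fold change in the averaged comparison, against 15.5% of all genes. With the passage as a replicate block, edgeR gave TXNIP an FDR of 0.00871 in MM1R cells and of 0.0350 in MM1S cells.

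SRXN1 and TXNIP were also the members that were higher with RSL3 than without it in all 6 passages, as were 13.8% of all genes. For TXNIP the within-passage ratio ranged from 1.10 at MM1S passage 16 to 2.03 at MM1R passage 7. The ratio at MM1S passage 16 involves the library with the lowest scaling factor. With counts scaled by the library total in place of TMM, it was 0.910, so that 5 of 6 passages were higher. Scaling by median-ratio size factors, as in the normalized table, gave 1.10 and 6 of 6.

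The 2 thioredoxins showed smaller differences. In MM1R cells TXN ranged from 279 to 479 CPM untreated and from 306 to 404 CPM with RSL3. The MM1S ranges were 283 to 339 CPM and 356 to 393 CPM. The ranges overlapped in MM1R cells and were apart in MM1S cells, where the log2 fold change was 0.27 ± 0.16 with an FDR of 0.392 (edgeR). The MM1R value was -0.03 (95% interval -0.37 to 0.32). TXN2, which serves mitochondria, stood at 79.0, 87.0 and 89.3 CPM without treatment and at 100.4, 106 and 106 CPM with RSL3 in MM1S cells, without overlap, with a log2 fold change of 0.29 ± 0.13 and an FDR of 0.221 that missed the threshold (edgeR). The MM1R value was 0.05 (95% interval -0.22 to 0.32). With scaling by the library total, the MM1S ranges overlapped for both thioredoxins. The RSL3 library with the lowest TMM scaling factor then fell below at least 1 untreated library.

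For the 5 peroxiredoxins among the members, the log2 fold changes after RSL3 lay between -0.07 and 0.03 in MM1R cells and between 0.00 and 0.22 in MM1S cells. None had an unadjusted p under 0.05 (edgeR). PRDX3, which removes peroxide in mitochondria, had the values closest to 0. Its levels were 180, 203 and 226 CPM without treatment and 187, 212 and 208 CPM with RSL3 in MM1R cells, with a 95% interval of -0.27 to 0.26 for the log2 fold change. The MM1S levels were 207, 226 and 249 CPM against 207, 229 and 246 CPM. The 2 treatments overlapped in both lines. PRDX5 had a log2 fold change of 0.22 in MM1S cells (95% interval -0.05 to 0.49), and PRDX6, which also reduces phospholipid hydroperoxides, one of 0.17 (95% interval -0.05 to 0.39). PRDX1 had the widest intervals of the peroxiredoxins, -0.61 to 0.58 in MM1R cells and -0.46 to 0.73 in MM1S cells, the latter reaching up to a 1.66-fold increase.

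In MM1S cells the log2 fold changes of all 10 members were above 0, with a median of 0.22 against 0.00 over all genes, of which 50.3% were above 0. In MM1R cells 5 of the 10 were above 0, with a median of 0.01. MM1S RSL3 replicate 1, the library with the lowest scaling factor, had the highest level among the 9 MM1S libraries for TXN (393 CPM), PRDX1 (343 CPM), PRDX2 (278 CPM), PRDX5 (149 CPM) and PRDX6 (259 CPM), and without it 8 of the 10 members were above 0, with a median of 0.17. PRDX1 then had a value of -0.26 and PRDX2 of -0.03, and those of SRXN1 and TXNIP were 1.71 and 0.64.

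**Figure D2:**
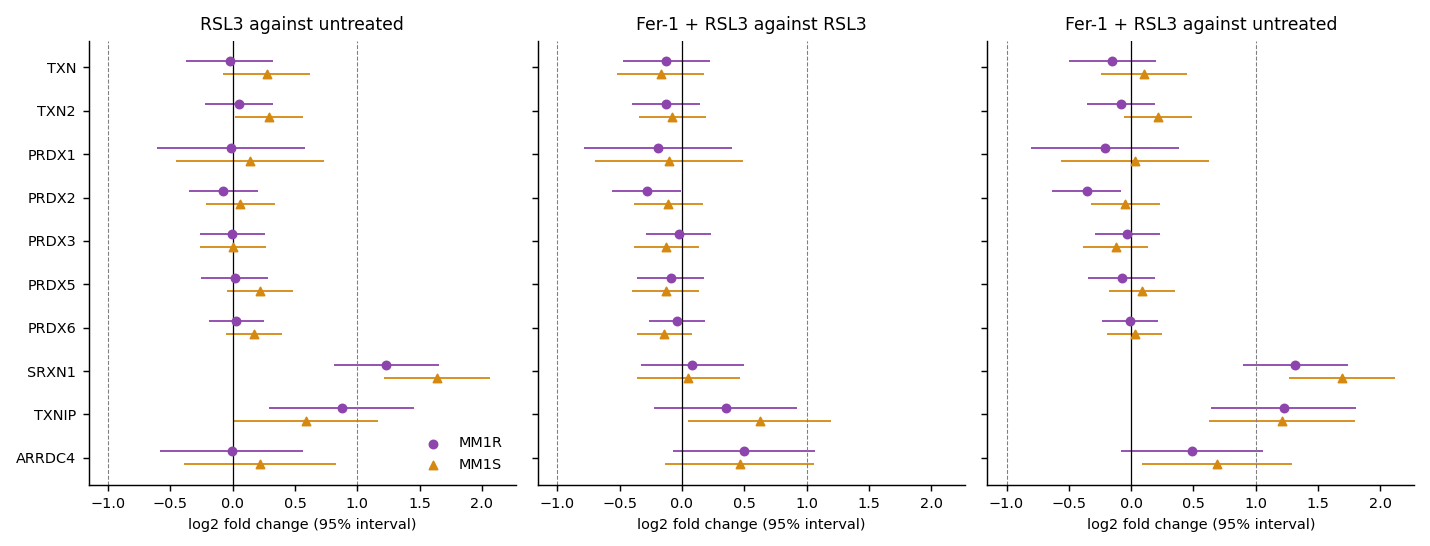
Fitted log2 fold change (horizontal axis) with its 95% interval for each gene in 3 comparisons, with circles for MM1R cells, triangles for MM1S cells and dashed lines at a log2 fold change of -1 and 1. SRXN1 lies at 1.23 and 1.64 after RSL3, near 0 when RSL3 with Fer-1 is set against RSL3 alone, and at 1.32 and 1.69 for Fer-1 and RSL3 against no treatment.

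The second question was whether pre-treatment with Fer-1 returned these transcripts towards their untreated level. The comparisons with RSL3 alone and with untreated cells share libraries with the first comparison, so their values are given side by side. Set against RSL3 alone, cells given Fer-1 first had no member as a DEG in MM1R cells, in MM1S cells or averaged over the lines, by edgeR with or without the replicate block or by DESeq2. Over all genes, 0% were DEGs in MM1R cells, 0% in MM1S cells and 0.056% in the averaged comparison by edgeR, with 881, 821 and 1826 genes at an unadjusted p under 0.05, while edgeR with the replicate block called 12, 5 and 53 genes and DESeq2 17, 5 and 61. Of the 10 members, 1 had an unadjusted p under 0.05 in MM1R cells (PRDX2), 1 in MM1S cells (TXNIP) and 3 in the averaged comparison (PRDX2, TXNIP and ARRDC4). The PRDX2 log2 fold change was -0.28 in MM1R cells and -0.20 averaged, and without the MM1R library that stood apart it was -0.18 (FDR 1, edgeR) and -0.15 (FDR 0.629, edgeR).

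The SRXN1 level with Fer-1 and RSL3 was 246, 249 and 302 CPM at MM1R passages 4, 6 and 7 and 244, 353 and 294 CPM at MM1S passages 16, 22 and 23. It was above the RSL3 library of the same passage in 3 passages and below it in the other 3, whereas with scaling by the library total it was above in 5 of 6. The log2 fold change against RSL3 alone was 0.08 in MM1R cells (95% interval -0.33 to 0.50) and 0.05 in MM1S cells (95% interval -0.36 to 0.46), so that a return to the untreated level lies outside both intervals. Without the MM1R library that stood apart, the MM1R value was 0.13. Against untreated cells, SRXN1 was 2.49-fold higher in MM1R cells with an FDR of 0.00121 and 3.23-fold higher in MM1S cells with an FDR of 0.000426 (edgeR). The MM1R log2 fold change against untreated cells was 1.32, and 1.36 with an FDR of 0.00424 without that library (edgeR).

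With Fer-1 before RSL3, TXNIP stood at 1056, 647 and 963 CPM in MM1R cells, and the MM1S libraries had 785, 547 and 531 CPM. Each of these libraries was above the RSL3 library of its passage, by 1.08 to 2.10 times, and above the untreated library, by 1.85 to 3.49 times. The largest ratio to RSL3 alone was that of MM1S passage 16, whose RSL3 library stood apart, and without that library the MM1S log2 fold change against RSL3 alone was 0.57. Against RSL3 alone the log2 fold change was 0.35 ± 0.27 in MM1R cells, 0.62 ± 0.27 in MM1S cells and 0.49 ± 0.19 averaged over both, with FDRs of 0.893, 0.851 and 0.309 (edgeR), so the further increase did not pass the test. The MM1R value was 0.54 without MM1R Fer-1 + RSL3 replicate 2, 0.68 without MM1R RSL3 replicate 1, and as low as 0.21 over all libraries left out in turn. The averaged value was 0.58 without the former and 0.65 without the latter. With the replicate block the averaged FDR was 0.0568 (edgeR). Against untreated cells TXNIP was a DEG in both lines, with log2 fold changes of 1.22 ± 0.28 (FDR 0.0112, edgeR) and 1.21 ± 0.28 (FDR 0.0186, edgeR). With SRXN1, 2 of the 10 members were thus DEGs in each line, beside 2.16% of all genes in MM1R cells and 1.37% in MM1S cells. Without MM1R Fer-1 + RSL3 replicate 2, the library that stood apart, the value in MM1R cells was 1.41 with an FDR of 0.0125 (edgeR). The MM1R call was lost without MM1R untreated replicate 2 (log2 fold change 1.17, FDR 0.0534, edgeR) or 3 (1.04, FDR 0.0591). The MM1S call was lost without MM1S untreated replicate 2 (1.21, FDR 0.0651, edgeR), MM1S untreated replicate 3 (1.03, FDR 0.0910) or MM1S Fer-1 + RSL3 replicate 1 (1.01, FDR 0.0910).

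TXNIP was the only member with the order untreated, RSL3, Fer-1 and RSL3 from low to high in all 6 passages, an order that 1.24% of all genes had and that fails at MM1S passage 16 when counts are scaled by library totals. It was also the only one above RSL3 alone in all 6 passages with Fer-1, as were 8.05% of all genes. SRXN1 and TXNIP were above untreated in all 6 passages with Fer-1 and RSL3, as were 17.1%. In the opposite direction, TXN2 and PRDX6 were lower with Fer-1 and RSL3 than with RSL3 alone in all 6 passages, as were 6.56% of all genes, with ratios of 0.804 to 0.998 and 0.812 to 0.995. The lowest ratios were those of MM1R passage 6 for TXN2 and MM1S passage 16 for PRDX6, each with a library that stood apart. In the pairs without such a library, the lowest were 0.935 and 0.944, both at MM1S passage 23. With scaling by the library total, the level was lower with Fer-1 and RSL3 in 3 passages for TXN2 and in 4 for PRDX6, and neither gene had an unadjusted p under 0.05 (edgeR).

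ARRDC4 stood at 6.03, 4.90 and 3.59 CPM in untreated MM1R cells, at 5.65, 4.87 and 3.93 CPM with RSL3 and at 9.50, 4.84 and 6.06 CPM with Fer-1 and RSL3. The corresponding MM1S levels were 2.95, 1.83 and 2.06 CPM, then 2.37, 3.30 and 2.29 CPM, then 3.94, 3.83 and 3.25 CPM. It was higher with Fer-1 and RSL3 than with RSL3 alone in 5 of 6 passages, and the exception was MM1R passage 6, which holds the library that stood apart and where the ratio was 0.992, or 1.03 with scaling by the library total. The averaged log2 fold change was 0.48 ± 0.20 with an FDR of 0.321 (edgeR), and 0.58 with an FDR of 0.306 without that library (edgeR). Its MM1R value was 0.50, and 0.69 without it. After RSL3 alone, the ARRDC4 log2 fold change was -0.01 in MM1R cells and 0.22 in MM1S cells. ARRDC4 was then above untreated in 3 of 6 passages, against 6 of 6 for TXNIP. Its log2 CPM over the 18 libraries had a Pearson r of 0.79 with TXNIP, given as a description over libraries that share passages and lines.

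PRDX2, a peroxiredoxin abundant in red blood cells and present in most cell types, was at 303, 248 and 319 CPM in MM1R cells given Fer-1 and RSL3, against 342, 357 and 360 CPM with RSL3 and 331, 358 and 427 CPM without treatment. All 3 were below both other libraries of their passage. The log2 fold change against untreated was -0.36 ± 0.13 with an FDR of 0.0992 (edgeR), 0.0167 with the replicate block (edgeR) and 0.0466 by DESeq2. The lowest value came from the library that stood apart, and without it the log2 fold change was -0.26 with an FDR of 0.331 (edgeR). In MM1S cells it was -0.05 ± 0.13. PRDX1, PRDX3, PRDX5, PRDX6, TXN and TXN2 had log2 fold changes between -0.21 and 0.21 against untreated cells in the 2 lines, with none at an unadjusted p under 0.05 (edgeR). Without the library that stood apart, the MM1R values of these 6 genes were between -0.16 and -0.02.

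**Figure D3:**
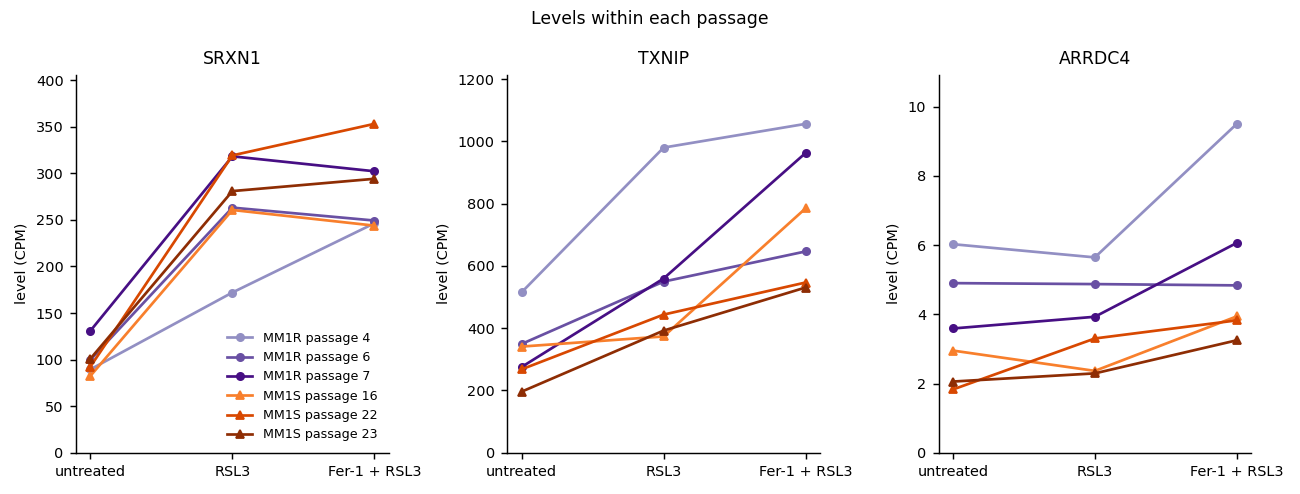
Level in CPM (vertical axis, from 0) of SRXN1, TXNIP and ARRDC4 in untreated, RSL3-treated and Fer-1 and RSL3-treated cells, with 1 line per passage in purple with circles for MM1R cells and in orange with triangles for MM1S cells. TXNIP goes up at both steps in all 6 passages (5 of 6 at the first step with scaling by library totals), and SRXN1 goes up at the first step in all 6 and at the second in 3 of 6 (5 of 6 with that scaling).

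Before any treatment the 2 lines were compared to see how the system differs between glucocorticoid-resistant and -sensitive cells. Each passage belongs to 1 line, so line and passage cannot be told apart in this comparison. ARRDC4 was a DEG, with the levels given above, and was 2.12-fold higher in MM1R cells (log2 fold change 1.09 ± 0.28, FDR 0.0216, edgeR). It was the only one of the 10 members, beside 4.64% of all genes. The ARRDC4 call was lost without MM1R untreated replicate 1 (FDR 0.0752) or 2 (FDR 0.0606), or without MM1S untreated replicate 2 (FDR 0.0996) or 3 (FDR 0.0899) (edgeR). PRDX2 had the levels 331, 358 and 427 CPM in MM1R cells, and 260, 231 and 213 CPM in MM1S cells, without overlap. Its log2 fold change was 0.66 ± 0.13 (1.58-fold) with an FDR of 0.00438 (edgeR), and its FDR stayed between 0.00191 and 0.0312 when each library was left out in turn. PRDX2 and ARRDC4 were the 2 members with an FDR under 0.05 at any fold change, beside 10.5% of all genes.

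Over all treatments, no member had all 9 MM1R libraries above all 9 MM1S libraries, as 2.49% of all genes had. Without the library that stood apart, the other 8 MM1R libraries held PRDX2 at 303 to 427 CPM and the 9 MM1S libraries at 197 to 278 CPM, so that the lines were separate, as for 3.74% of all genes. The library that stood apart had 248 CPM, within the MM1S range. PRDX1, a close relative of PRDX2, had levels of 296, 340 and 421 CPM in MM1R cells before treatment and 290, 166 and 170 CPM in MM1S cells. Its log2 fold change of 0.76 ± 0.28 had an FDR of 0.101 (edgeR), 0.0471 by DESeq2, and without MM1S untreated replicate 1 it was 1.07 with an FDR of 0.0300 (edgeR). Over all 18 libraries left out in turn, the value ranged from 0.61 to 1.07 and the FDR from 0.0300 to 0.311, and it was under 0.05 in 2 of the 18 fits.

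Within MM1S cells PRDX1 followed the passage. The 3 libraries of passage 16 had 288, 290 and 343 CPM, whichever the treatment, and the 6 libraries of passages 22 and 23 had 166 to 180 CPM. PRDX1 was the only member for which passage 16 stood above the later passages in every library, as it did for 10.2% of all genes. PRDX1 in MM1R cells ranged from 265 to 421 CPM, with the lowest value in the library that stood apart and 285 CPM as the lowest without it. TXNIP, TXN, TXN2, SRXN1, PRDX3, PRDX5 and PRDX6 had FDRs of 0.276 or higher between the untreated lines (edgeR).

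**Figure D4:**
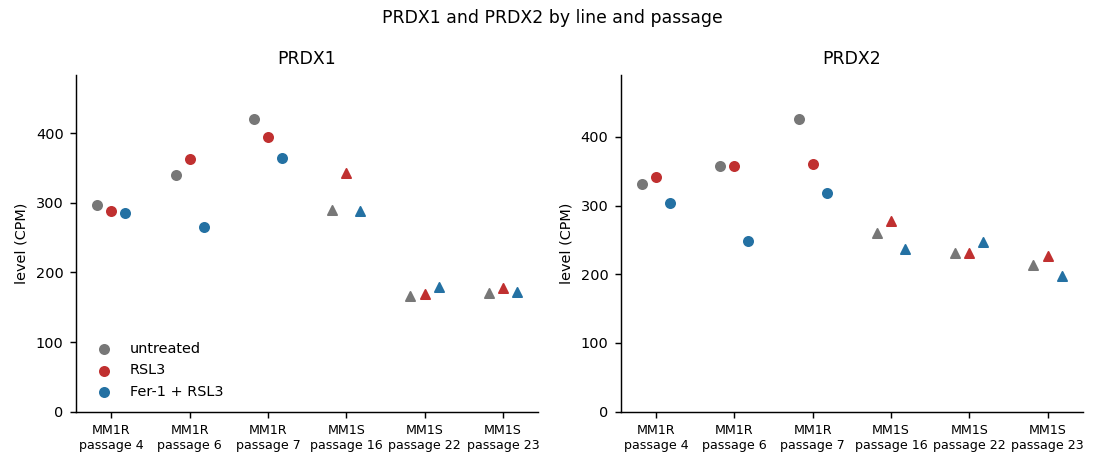
Level of PRDX1 and PRDX2 in CPM (vertical axis, from 0) at each passage of the 2 lines, with 1 point per library, coloured by treatment. PRDX1 sits at 288 to 343 CPM at MM1S passage 16 and at 166 to 180 CPM at passages 22 and 23, and PRDX2 at MM1R passage 6 drops to 248 CPM in the Fer-1 and RSL3 library alone.

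Other genes of the pathway were followed in 4 lists. Of the 8 thioredoxin and glutathione reductases and glutaredoxins, all tested, 2 passed the FDR threshold upwards and 0 downwards in the averaged RSL3 comparison, beside 15.5% of all genes in either direction, with a list median of 0.12 against 0.00 over all genes. TXNRD1, the cytosolic thioredoxin reductase that recharges TXN, averaged 239 ± 26.7 CPM untreated and 389 ± 94.4 CPM with RSL3 in MM1R cells (mean ± SD, n = 3), while the MM1S means were 271 ± 29.5 and 498 ± 65.5 CPM. The groups were apart in both lines. Its log2 fold change was 0.70 ± 0.17 (FDR 0.0290, edgeR) in MM1R cells and 0.88 ± 0.17 (FDR 0.0103, edgeR) in MM1S cells. With Fer-1 and RSL3 it was at 479 ± 63.3 and 523 ± 39.6 CPM. GLRX, a glutaredoxin that removes glutathione from proteins, had an averaged log2 fold change of 0.44 ± 0.10 (FDR 0.00578, edgeR). GSR, glutathione reductase, and GLRX3, named for their CPM uncorrected for length, had values of 0.27 ± 0.10 and 0.01 ± 0.09 and did not pass.

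Of 15 tested genes among 16 other thioredoxin-fold proteins, 2 passed the FDR threshold upwards and 0 downwards in the averaged RSL3 comparison, a share near the 15.5% of all genes, with a median of 0.04. The list includes the peroxiredoxin PRDX4, which was not among the 2. TMX4, a membrane protein of the endoplasmic reticulum, had a log2 fold change of 0.35 ± 0.07 (FDR 0.00206, edgeR), and TXNL1, a cytosolic thioredoxin-like protein, one of 0.32 ± 0.09 (FDR 0.0304, edgeR). TXNDC11 and TXNDC5, both proteins of the endoplasmic reticulum and the highest of the others in CPM uncorrected for length, had values of -0.14 ± 0.07 and -0.18 ± 0.13 and did not pass.

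Of 10 tested genes among 11 thioredoxin clients and sestrins, SESN3 alone passed, upwards, in the averaged comparison, where 15.5% of all genes passed, with a list median of 0.05. SESN3, a stress-induced regulator of mTORC1, averaged 22.3 ± 2.87 CPM in untreated and 51.0 ± 0.572 CPM in RSL3-treated MM1R cells, while the MM1S means were 38.4 ± 17.2 and 72.3 ± 40.9 CPM (mean ± SD, n = 3), with an averaged log2 fold change of 1.05 ± 0.30 (FDR 0.0247, edgeR). It passed the FDR threshold in neither line alone (edgeR). The ribonucleotide reductase subunits RRM2 and RRM1, which receive electrons from thioredoxin, had values of 0.20 ± 0.22 and 0.03 ± 0.13.

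Of 5 tested genes among 7 further alpha-arrestins and Mondo factors, 1 passed upwards and 2 downwards in the averaged comparison, beside the same 15.5% of all genes. ARRDC3, an alpha-arrestin that directs membrane receptors to degradation, went from 45.2 ± 9.08 to 194 ± 69.9 CPM in MM1R cells and from 54.1 ± 10.3 to 182 ± 97.9 CPM in MM1S cells, with log2 fold changes of 2.10 ± 0.32 (FDR 0.00460, edgeR) and 1.75 ± 0.32 (FDR 0.00770, edgeR). MLXIP, which encodes MondoA, went from 15.5 ± 2.23 to 7.63 ± 0.992 CPM in MM1R cells, a log2 fold change of -1.02 ± 0.14 (FDR 0.00251, edgeR), and had a value of -0.48 ± 0.14 in MM1S cells (FDR 0.0630, edgeR). Averaged over both lines it was -0.75 ± 0.10 (FDR 0.000176, edgeR), and MLX had a value of -0.52 ± 0.11 (FDR 0.00491, edgeR). The other tested arrestins, ARRDC1 at -0.07 ± 0.11 and ARRDC2, which was below 2 CPM in every library, at 1.05 ± 0.53, did not pass.

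With Fer-1 added to RSL3, 0 genes of the 4 lists differed from RSL3 alone at the FDR threshold, in either line or averaged (edgeR). Between the untreated lines 1 of the 15 thioredoxin-fold genes and 3 of the 10 clients and sestrins did, beside 10.5% of all genes, and none of the other lists. These were named after their values were seen. TXNL4A (0.54), MSRB2 (0.57) and MSRB3 (0.60) were higher and RRM2B (-0.61) lower in MM1R cells, as log2 fold changes.

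**Figure D5:**
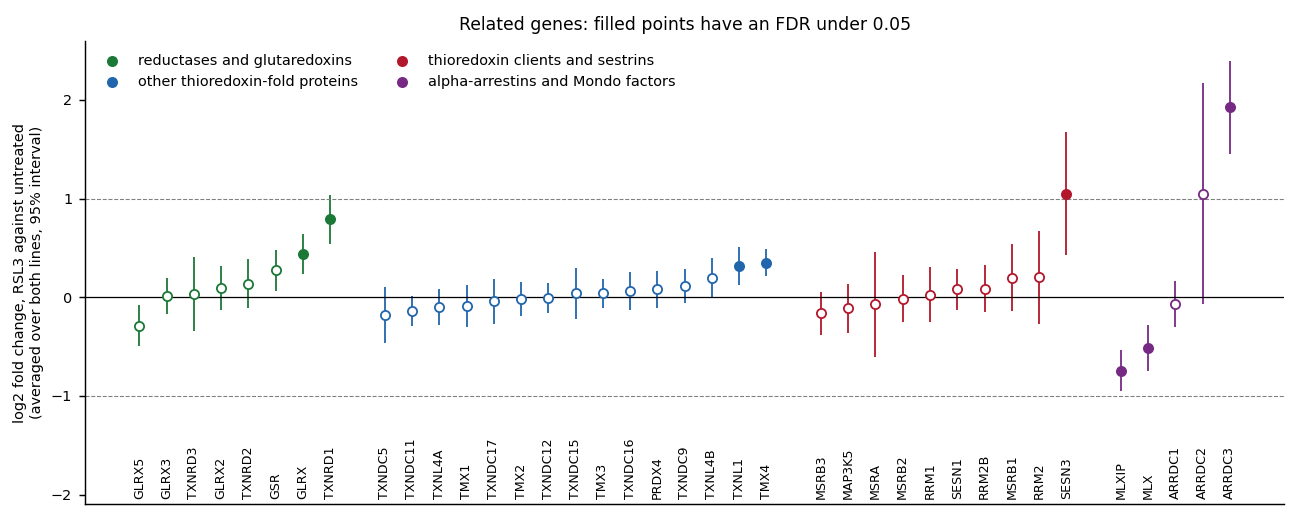
Averaged log2 fold change for RSL3 against no treatment (vertical axis) with its 95% interval for the tested genes of the 4 lists, each list in 1 colour, with filled points for an FDR under 0.05. ARRDC3 at 1.92 and SESN3 at 1.05 are highest among the filled points, and MLXIP at -0.75 is lowest.

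The genes whose log2 CPM resembled that of a member most closely over the 18 libraries were found by Pearson r, without a test, because libraries share lines, passages and treatments. For SRXN1 they were DGKG (r = 0.97), ASF1A (0.96) and BRF2 (0.96). For TXN they were MRPS15 (0.94), NDUFS5 (0.94) and GAPDH (0.93), which encode a mitochondrial ribosomal protein, a subunit of respiratory complex I and a glycolytic enzyme. For TXNIP they were WDFY1 (0.91), CCDC113 (0.90) and NAPB (0.90), and for ARRDC4 they were ATP13A4 (0.94), SPOCK2 (0.90) and ZNF514 (0.90), of which the latter 3 have mean levels of 1.67 to 2.05 CPM. Among the members, PRDX3 ran opposite to both arrestins, with r of -0.68 to TXNIP and -0.77 to ARRDC4.

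Some members share sequence with other loci. The annotation of hg19 lists 7 pseudogenes named after TXN, 4 after PRDX2, 4 after PRDX3 and 1 each after TXN2, PRDX1 and PRDX5, and none of them has a row in the raw table. PRDX1 overlaps MMACHC on the opposite strand and PRDX2 overlaps HOOK2 on its own strand, with at most 439 and 312 counts per library for these neighbours, and PRDX6 overlaps an antisense RNA. The use of strand in counting was not stated, so these counts are uncertain to the extent that reads were shared.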

How the data were processed

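RNA was measured in 18 libraries of 6 groups. Per the labels and the study's methods, the authors sequenced on a BGISEQ-500, checked them with FastQC 0.11.5 and aligned them to hg19 with STAR 2.7.3a, and they deposited raw counts for 43735 genes. The counting tool and strand setting are not given in the sources used here. The authors also deposited a normalized table (signal: counts divided by a size factor per library, 0.834 to 1.08), used here for 1 scaling check.

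Genes were filtered with filterByExpr (minimum count 10), scaled with TMM and tested with edgeR 4.0.16 (R 4.3.3, limma 3.58.1), quasi-likelihood test, in 1 model of 6 group means with 12 residual degrees of freedom, adjusted by Benjamini-Hochberg (FDR) over 14281 genes. A DEG is a gene whose FDR was below 0.05 and whose absolute log2 fold change was above 1. Log2 CPM used a prior count of 2. CPM per kb used the canonical transcript length of GENCODE's hg19 annotation. Within-passage ratios are of CPM. Fits were tested on simulated data.

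Members and lists were chosen with earlier results of these data known. Named were the members, list genes with an FDR under 0.05 after RSL3 or for Fer-1 and RSL3 against RSL3, with the 2 others per list of highest mean CPM, uncorrected for length, and the 3 genes most like SRXN1, TXN, TXNIP and ARRDC4. The labels give a passage to each library, and treatments of 1 passage form a pair. Deviations from group means of same-passage libraries correlated at a median of 0.250 in MM1R (0.0338 to 0.516, 9 pairs) and 0.416 in MM1S cells (0.216 to 0.681, 9 pairs). The paper calls its 3 replicates of each cell line biologically independent, and the labels show only that their passages differ. The p-values measure the spread between these libraries. Alternatives were the passage as replicate block (8 residual degrees of freedom), DESeq2 1.42.0, RLE and upper-quartile scaling, no filter or a minimum count of 50, only the groups compared, no fold threshold, and leaving out each library. Scaling by library totals and by the deposited normalized counts was added after seeing the data.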

Additional observations from a re-analysis of the deposited data

How the results depend on the processing

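The counts of members called as DEGs were 1 (SRXN1) for RSL3 in MM1R cells, in MM1S cells and averaged, 0 for the effect of Fer-1 on RSL3-treated cells, 2 for Fer-1 and RSL3 against untreated in each line, 1 between the untreated lines and 0 for the interaction. The replicate block (passage), which could not be fitted for the untreated lines, left every one of these counts as it was (1, 1, 1, 0, 0, 0, 2, 2 and 0), as did DESeq2, RLE, upper-quartile scaling, both other filters and the fits of only the groups compared. With no fold change threshold, the count was 2 for RSL3 averaged over the lines (SRXN1 and TXNIP) and 2 for the untreated lines (PRDX2 and ARRDC4). With each library left out in turn, the count ranged from 0 to 2 between the untreated lines, from 1 to 2 for Fer-1 and RSL3 against untreated in MM1R cells and from 1 to 2 in MM1S cells. The background of all genes called moved more. With the block, it went from 171 to 410 for RSL3 in MM1R cells and from 230 to 387 in MM1S cells, DESeq2 gave 271 in MM1R cells, and a fit of only the groups compared gave 3 in MM1S cells. Of 51 member values larger than their SE, 1257 of 1267 alternatives kept their direction and side of the threshold, 9 lost a call, 1 gained one and 0 reversed. The other 49 values were at or under their SE, and 98 of their 1223 alternatives changed sign. With 3 libraries per group and 35 counts in the lowest library, differences in ARRDC4 are resolved least.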
